A study of Mus musculus with 6 samples.

Results

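The genes described here are the 10 genes of antigen presentation by the major histocompatibility complex (MHC): *H2-K1*, *H2-D1*, *B2m*, *Tap1* and *Tapbp* of class I, *H2-Aa*, *H2-Ab1*, *H2-Eb1* and *Cd74* of class II, and *Ciita*, which switches on the class II genes. They were chosen by name, with earlier results of these data known, and all 10 were found among the 55341 genes of the read-count table. RNA of aortic vessels from 3 miRNA-26b-/- mice and 3 miRNA-26b+/+ mice was sequenced, with 1 library per mouse. The miRNA-26b-/- libraries are called KO 1 to KO 3 and the miRNA-26b+/+ libraries WT 1 to WT 3. All mice were 8 weeks old, were fed chow and are labelled C57BL/6NCrl, and the labels call the wild type naive. The targeted allele was made in R1/E embryonic stem cells of 129/Sv origin and passed on by crossing chimeras to C57BL/6NCrl mice. In it the miRNA-26b hairpin lay between loxP sites and was removed by the tamoxifen-activated recombinase CreERT2, whose transgene was bred out afterwards. The paper describes the strains from these crosses as mixed 129/Sv and C57BL/6, while its methods place all mice on C57BL/6. Which MHC haplotype the mice carry is not given in the sources used here. The samples are labelled as aortic endothelial cells, whereas the methods describe pieces of aortic arch and thoracic aorta taken after perfusion.

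MHC class I molecules are made by almost every nucleated cell. A heavy chain such as H2-K or H2-D pairs with beta-2-microglobulin, encoded by *B2m*, and is loaded with peptides that the transporter TAP pumps into the endoplasmic reticulum and that tapasin, encoded by *Tapbp*, helps to select. MHC class II molecules are made mainly by dendritic cells, macrophages and B cells, which in the vessel wall sit largely in the adventitia. The chains encoded by *H2-Aa*, *H2-Ab1* and *H2-Eb1* travel with the invariant chain *Cd74* to endosomes, where peptides of ingested proteins replace it. CIITA does not bind DNA itself but is recruited to class II promoters by factors bound to the X box and the Y box, and interferon gamma induces both *Ciita* and the class I genes.

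In these aortas the class I genes *B2m*, *H2-D1*, *H2-K1* and *Tapbp* were abundant and nearly level between the genotypes, with *B2m* at 495 ± 23.7 CPM in the knockout and 488 ± 20.8 CPM in the wild type (CPM, normalized read counts scaled to a common library size; SD, n = 3). The class II genes *H2-Aa*, *H2-Ab1*, *H2-Eb1* and *Cd74* moved together from mouse to mouse, with both the highest and the lowest class II sum in knockout mice, and none differed between the genotypes beyond that spread. *Ciita*, a scarce transcript, was 3.4-fold higher in the knockout by the fitted estimate (95% interval 1.16 to 9.93), with each knockout mouse above each wild-type mouse. However, *Ciita* did not pass adjustment for the 16017 genes tested. Some of its exon bases are shared with the opposite-strand gene *Dexi*, and how many of its reads come from *Dexi* cannot be told.

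miRNAs pair with messenger RNAs through their seed, bases 2 to 8. The sequences are shown to compare the deleted miRNA with its relatives and with sites that the 5p strand could pair with. Mature sequences are those of RefSeq for GRCm38.p6, and the seed is in capitals. The 5p strand of miRNA-26b is encoded at chr1:74394324-74394344 on the forward strand. miRNA-26a-5p, which *Mir26a-1* and *Mir26a-2* encode and which was not targeted, has the same seed as that strand. miRNA-26a-2-3p, which *Mir26a-2* encodes, has the same seed as miRNA-26b-3p.
mmu-miR-26b-5p: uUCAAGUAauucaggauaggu
mmu-miR-26a-5p: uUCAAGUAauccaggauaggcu
mmu-miR-26b-3p: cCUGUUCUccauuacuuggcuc
In the longest annotated 3′ UTR of each of the 10 genes, 0 held the 8-base site TACTTGAA or the 7-base site TACTTGA of the 5p seed, against 4.02% of 21877 genes with the 8-base site. *Tapbp* and *Ciita* each held 1 copy of the weaker site ACTTGAA, printed in capitals with its flanks. Any of the 3 sites was present in 17.6% of all genes searched. The match is of letters alone, and sites of the 3p seed were not searched.
*Tapbp* 3′ UTR: ataattttacaACTTGAActgcgttaatg
*Ciita* 3′ UTR: gaactataataACTTGAAacaatccacac

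The class II chains varied together between mice, as shown further on, and the promoters of *H2-Aa* and *H2-Eb1* are printed because they share a pair of motifs. RefSeq's promoter table, with 250 bases before and 50 after each start, held 8 windows for 7 of the 10 genes. *H2-Ab1*, *Cd74* and *Ciita* have none there. On both strands of the windows 5 patterns were searched, namely the Y box ATTGG, the X box core GCAAC, the pair of X box core and then Y box on the same strand with 15 to 35 bases between them, the interferon gamma-activated site TTCNNNGAA and the interferon-response element, GAAA and GAAA with any 2 bases between. The pair was found in *H2-Aa*, with 28 bases between the boxes and the first at base -81 from the start, and in *H2-Eb1*, with 27 bases between them and the first at -91. It was found in none of the class I windows of *H2-K1*, *H2-D1*, *B2m*, *Tap1* and *Tapbp*, and in 1.02% of all 32851 promoters of this length. The single boxes were common, at 37.4% of promoters for ATTGG and 35.2% for GCAAC. The window of *H2-Aa* is chr17:34287774-34288073 on the reverse strand and that of *H2-Eb1* is chr17:34305617-34305916 on the forward strand (GRCm38.p6). The pair is in capitals.
*H2-Aa* promoter: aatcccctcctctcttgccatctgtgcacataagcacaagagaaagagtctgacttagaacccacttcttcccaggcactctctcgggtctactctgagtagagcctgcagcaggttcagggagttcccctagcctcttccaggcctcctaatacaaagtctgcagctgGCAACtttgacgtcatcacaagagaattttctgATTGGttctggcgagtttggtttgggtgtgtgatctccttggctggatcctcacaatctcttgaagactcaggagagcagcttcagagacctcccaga
*H2-Eb1* promoter: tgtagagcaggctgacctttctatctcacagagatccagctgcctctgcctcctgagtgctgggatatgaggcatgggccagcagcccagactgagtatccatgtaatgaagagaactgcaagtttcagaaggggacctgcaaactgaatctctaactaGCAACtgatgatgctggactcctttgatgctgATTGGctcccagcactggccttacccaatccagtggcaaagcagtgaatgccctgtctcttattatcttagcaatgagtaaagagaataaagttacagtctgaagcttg
The exact letters of the interferon-response element were found in 1 of the 7 genes, *B2m*, at base -139, and in 3.44% of all promoters. Those of the interferon gamma-activated site were found in none of the 7 and in 8.3% of all promoters. Near matches were not counted, so a window without a match may still hold a working element.

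The libraries held 25706728 to 33345037 counts assigned to genes, and their normalization factors by the trimmed mean of M-values (TMM) lay between 0.982 and 1.02. Levels are given as CPM after TMM. The targeted hairpin, listed as *Mir26b*, had 0 counts in KO 1, KO 2 and KO 3, but also 0 in WT 1 and WT 3 and 20 counts in WT 2, so this kind of library cannot check the genotype. Genes of smooth muscle summed to 30610 to 41140 CPM over 6 genes and those of endothelium to 446 to 1768 over 8 genes, so muscle genes were abundant in samples labelled as endothelial cells. KO 1 and KO 2 stood apart, with 446 and 494 summed CPM of endothelial genes against 1768 in KO 3 and 1229, 1705 and 1482 in WT 1 to WT 3. In these 2 libraries 6 of the 8 endothelial genes and 9 of the 10 macrophage genes were below all 4 other libraries. Genes of further cell types were higher in the knockout at an unadjusted p under 0.05. They were 4 of 4 for Schwann cells, 4 of 5 for skeletal muscle and 2 of 4 for sympathetic neurons. Of the 6 B cell genes, 1 was higher in the same way. KO 2 had the highest sum for Schwann cells, skeletal muscle and sympathetic neurons, at 429, 83.3 and 213 CPM. For sympathetic neurons only KO 2 lay above the wild type. KO 1 and KO 3 summed to 7.62 and 7.978 CPM there, below the 9.171, 47.84 and 21.97 CPM of WT 1 to WT 3. Each comparison was therefore repeated without each library in turn. In bulk samples, fewer cells of a type and less RNA per cell cannot be told apart.

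Level per exon length, as CPM per kilobase of exon (RPKM), allows the genes to be set in order. *B2m* was highest, at a mean of 572 RPKM over the 6 libraries, with a range of 539.5 to 605. *H2-D1* followed at 164 and *Cd74* and *H2-K1* at 92.9 and 92.5, and the last pair do not differ beyond their spread, since *Cd74* ranged from 56.3 to 162 RPKM and *H2-K1* from 74.9 to 105. *Tapbp* had 48.2 RPKM. The class II chains lay lower, with *H2-Eb1* at 27.4, *H2-Ab1* at 18.0 and *H2-Aa* at 15.4 RPKM, and their ranges over the libraries overlapped. *Tap1* had 2.26 RPKM and *Ciita* 0.324. Within the class I complex, the ratio of *B2m* to *H2-K1* plus *H2-D1* per length lay between 1.99 and 2.49 in all 6 libraries. The ratio of *Cd74* to *H2-Ab1* per length lay between 4.22 and 6.11, and that of *H2-Aa* to *H2-Ab1* between 0.704 and 1.02, so these proportions varied less between libraries than the sum of the class II genes did.

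**Figure D1:**
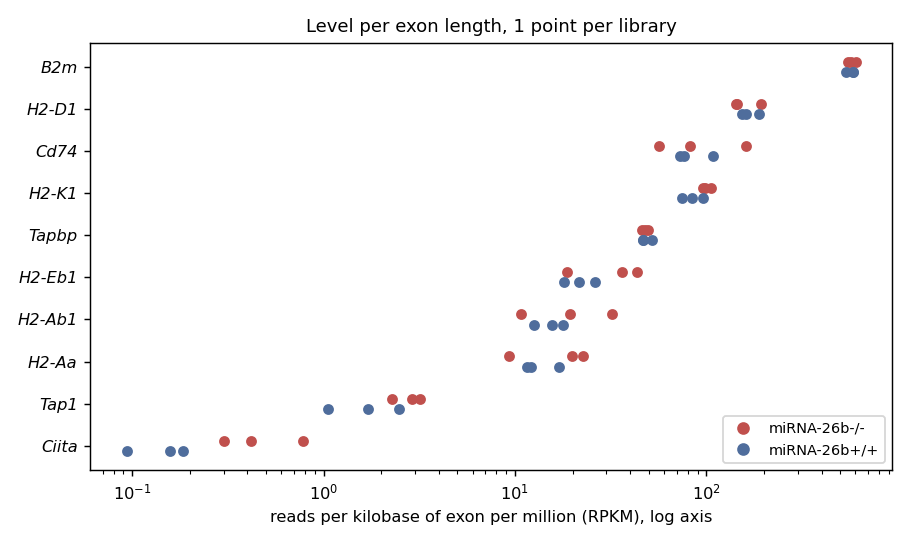
Level of each gene per exon length in RPKM, on a log axis, with 1 point per library, miRNA-26b-/- in red and miRNA-26b+/+ in blue. *B2m* lies between 539.5 and 605 RPKM in all libraries, and *Ciita* is the lowest gene at a mean of 0.324.

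The class I heavy chains present peptides to cytotoxic T cells, and their light chain is *B2m*. *H2-K1* (ENSMUSG00000061232, chr17:33996017-34000347, reverse strand, up to 8 exons in a coding transcript of the GRCm38 annotation) had 290.4, 309.7 and 281 CPM in KO 1 to KO 3 and 248, 282 and 220.2 CPM in WT 1 to WT 3. KO 1 and KO 2 were the highest libraries, and the groups overlapped by a single value, as WT 2 lay just above KO 3. The log2 fold change of knockout over wild type was 0.23 ± 0.14 (SE, n = 3 per group; 95% interval -0.07 to 0.54), with an adjusted p = 0.827 by edgeR's quasi-likelihood test with Benjamini-Hochberg adjustment over all genes tested. *H2-D1* (ENSMUSG00000073411, chr17:35262730-35267499, forward strand) had 372, 369.9 and 496 CPM in KO 1 to KO 3 and 396, 483 and 417 CPM in WT 1 to WT 3. KO 3 was the highest and KO 2 the lowest of the 6, so the knockout mice enclosed the whole wild-type range. Its log2 fold change was -0.07 ± 0.15 (95% interval -0.39 to 0.25), with an adjusted p = 0.975 in the same edgeR test. Reads of the heavy chain genes can be confused with each other, since 31.7% of 25-base stretches of *H2-K1* transcripts and 36.3% of those of *H2-D1* occur in another gene. At 50 bases the shares were 9.63% and 12.8%. Counts summed over 15 heavy chain genes of the *H2* family, with *H2-K1* and *H2-D1* among them and *Mr1* and *Cd1d1* left out, do not depend on how reads were divided between these genes, although reads with several alignments stayed uncounted. This sum had a log2 fold change of 0.01 (adjusted p = 0.995, edgeR).

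*B2m* (ENSMUSG00000060802, chr2:122147686-122153083, forward strand) had the smallest spread of the 10 genes when pooled over both genotypes. It had 520.3, 473 and 492 CPM in KO 1 to KO 3 and 501, 499 and 464 CPM in WT 1 to WT 3. The ranges lay almost on top of each other, and the coefficient of variation was 4.79% in the knockout and 4.27% in the wild type, against 3.12% and 6.49% for *Tapbp*. Its log2 fold change was 0.02 ± 0.12 (95% interval -0.24 to 0.29; adjusted p = 0.992, edgeR), so a change beyond the fold range of 0.844 to 1.22 lay outside the interval. None of its transcript stretches of 25 bases occurs in another gene. Of the 11681 genes with at least 5 CPM on average, 0.9% varied less between mice of the same genotype than *B2m*.

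Peptide supply was split between a steady and a variable gene. *Tapbp* (ENSMUSG00000024308, chr17:33915899-33929292, forward strand) had 168, 174 and 179 CPM in KO 1 to KO 3 and 189, 169.6 and 169 CPM in WT 1 to WT 3, a spread that 1.2% of genes fell below. WT 1 was the highest and KO 1 the lowest library, and the log2 fold change was -0.02 ± 0.14 (95% interval -0.32 to 0.28; adjusted p = 0.993, edgeR). Counting ignored strand, and 24.9% of the exon bases of *Tapbp* are also exon of the opposite-strand gene *Gm19412*, so reads there were counted for both. *Tap1* (ENSMUSG00000037321, chr17:34187553-34197225, forward strand), a subunit of the peptide transporter, had 12.4, 17.5 and 15.8 CPM in KO 1 to KO 3 and 13.6, 9.29 and 5.76 CPM in WT 1 to WT 3. WT 1 lay above KO 1, and the wild-type mice differed by 2.36-fold among themselves. The log2 fold change of *Tap1* was 0.68 ± 0.38 (95% interval -0.12 to 1.49), with an unadjusted p = 0.0903 and an adjusted p = 0.797 in edgeR. Without WT 1 the unadjusted p of this gene was 0.0368 at a log2 fold change of 1.04, and without WT 3 it was 0.31 at 0.41.

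**Figure D2:**
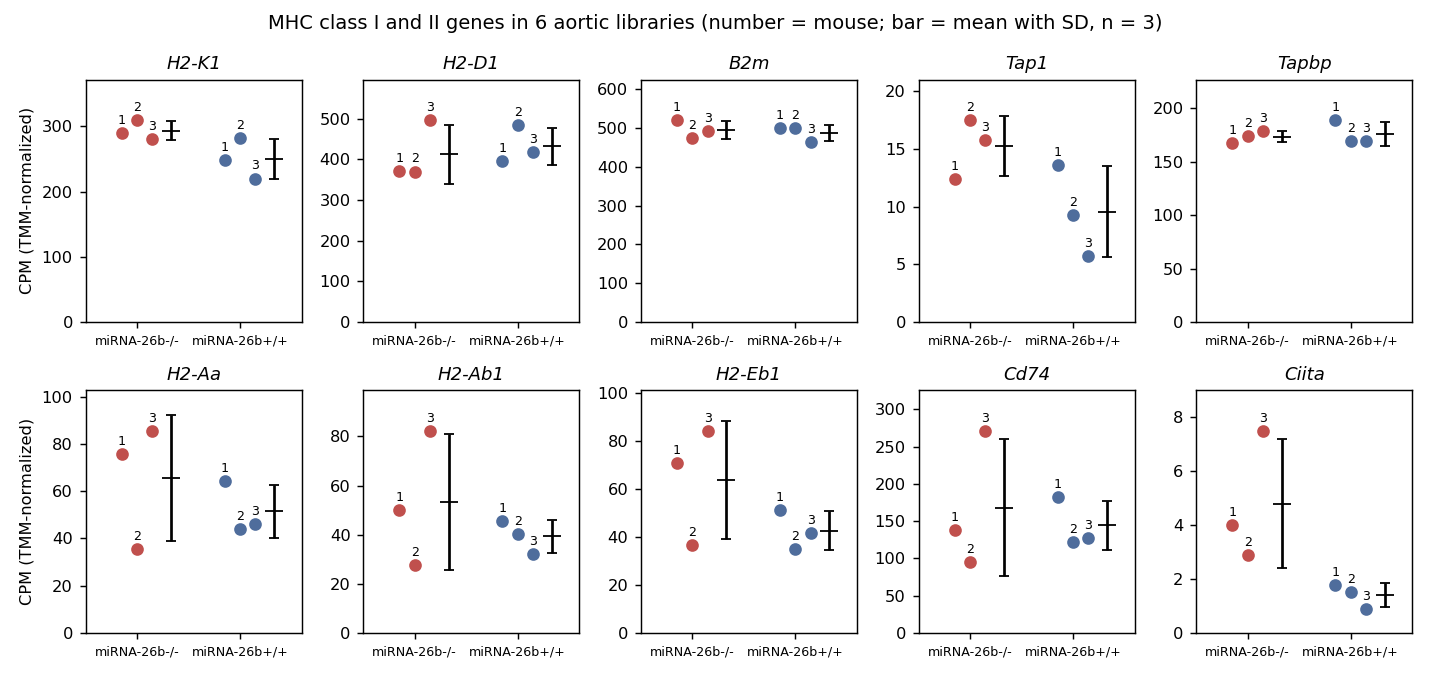
CPM of the 10 genes in each library, with the mouse number above each point and the mean with its SD (n = 3) as a black bar. The class I genes *H2-K1*, *H2-D1*, *B2m* and *Tapbp* lie in narrow bands in both genotypes, KO 3 is the highest point of all 4 class II genes, and *Ciita* is the only gene whose groups do not overlap.

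The class II genes were far more variable from mouse to mouse. *H2-Aa* (ENSMUSG00000036594, chr17:34282744-34287823, reverse strand), the alpha chain of the I-A molecule, had 75.7, 35.4 and 85.6 CPM in KO 1 to KO 3 and 64.2, 43.9 and 46.3 CPM in WT 1 to WT 3. Its partner beta chain *H2-Ab1* (ENSMUSG00000073421, chr17:34257689-34269419, forward strand) had 50.1, 27.5 and 82.3 CPM in KO 1 to KO 3 and 45.5, 40.2 and 32.3 CPM in WT 1 to WT 3. Both chains were highest in KO 3 and lowest in KO 2, so the extremes of both lay within the knockout group and the wild type sat between them. The log2 fold changes were 0.33 ± 0.28 for *H2-Aa* (95% interval -0.27 to 0.93; adjusted p = 0.897) and 0.42 ± 0.31 for *H2-Ab1* (95% interval -0.25 to 1.09; adjusted p = 0.866, edgeR for both).

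*H2-Eb1* (ENSMUSG00000060586, chr17:34305867-34316674, forward strand), the beta chain of the I-E molecule, had 70.7, 36.5 and 84.3 CPM in KO 1 to KO 3 and 51.2, 34.9 and 41.8 CPM in WT 1 to WT 3. KO 3 and KO 1 were above every wild-type mouse, while KO 2 was the second lowest. This chain had a log2 fold change of 0.56 ± 0.27 (95% interval -0.02 to 1.15), with an unadjusted p = 0.0582 and an adjusted p = 0.769 in edgeR. *H2-Ea-ps*, the pseudogene of the alpha chain that would pair with it, had no count in any library here, and C57BL/6 mice are known to lack the I-E molecule because this gene is defective. *Cd74* (ENSMUSG00000024610, chr18:60803848-60812652, forward strand) had 138, 94.5 and 271 CPM in KO 1 to KO 3 and 182, 122 and 128 CPM in WT 1 to WT 3. KO 3 was again the highest and KO 2 the lowest, with WT 1 second. The log2 fold change of *Cd74* was 0.22 ± 0.29 (95% interval -0.40 to 0.83; adjusted p = 0.943, edgeR).

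The spread within the knockout group was the common feature of the class II genes. The highest knockout library exceeded the lowest by 2.42-fold for *H2-Aa*, 3-fold for *H2-Ab1*, 2.31-fold for *H2-Eb1* and 2.87-fold for *Cd74*, against 1.41-fold to 1.49-fold in the wild type. Of the 11681 genes with at least 5 CPM, 78.9% to 87.3% varied less between mice of the same genotype than these 4. KO 3 was the highest library for 4 of the 4, and KO 1 was above KO 2 for 4 of the 4. Summed over the 4 genes, the libraries KO 1 to KO 3 had 335, 194 and 523 CPM and WT 1 to WT 3 had 343, 241 and 248 CPM. The 5 class I genes summed to 1363, 1345 and 1464 CPM in KO 1 to KO 3 and to 1348, 1443 and 1276 CPM in WT 1 to WT 3. The class I sum therefore varied less than the class II sum, although KO 3 was the highest library for both. Of the 5 class I genes 1, *H2-D1*, was highest in KO 3 and lowest in KO 2.

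*Ciita* (ENSMUSG00000022504, chr16:10480059-10528418, forward strand, up to 20 exons in a coding transcript) was the only gene of the 10 whose groups did not overlap. It had 3.99, 2.89 and 7.48 CPM in KO 1 to KO 3, from 102, 97 and 211 counts, and 1.76, 1.49 and 0.893 CPM in WT 1 to WT 3, from 54, 41 and 27 counts. All 3 knockout mice were above all 3 wild-type mice, and KO 3, the highest for the class II genes, was also the highest here. The means were 4.79 ± 2.40 and 1.38 ± 0.445 CPM (SD, n = 3), a log2 fold change of 1.77 ± 0.73 (95% interval 0.22 to 3.31). The edgeR quasi-likelihood test gave an unadjusted p = 0.0278 and an adjusted p = 0.736, and the exact two-sided permutation test gave p = 0.1, the smallest that 3 against 3 mice allow. Its call at the unadjusted threshold was lost without KO 3, without WT 2, without WT 3, with limma voom and with the earlier quasi-likelihood method of edgeR, where that p lay between 0.0592 and 0.13. The log2 fold change was 1.28 without KO 3 and 2.07 without KO 2, and the adjusted p lay between 0.615 and 0.994 over all alternatives run. The estimate was higher in the knockout in all of these settings.

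The counts of *Ciita* were few, and some of them fall where a second gene lies. *Dexi*, on the opposite strand, shares 329 exon bases with *Ciita*, and reads there were counted for both genes because strand was ignored. *Dexi* had 740, 610 and 495 counts in KO 1 to KO 3 and 371, 436 and 532 counts in WT 1 to WT 3. If its reads lay evenly over its 3353 exon bases, the shared bases would hold 72.6, 59.9 and 48.6 counts in KO 1 to KO 3 and 36.4, 42.8 and 52.2 counts in WT 1 to WT 3. In WT 2 and WT 3 that is more than all counts of *Ciita*, and in KO 3 it is well under them. In KO 1, KO 2 and WT 1 it is the larger part of the 102, 97 and 54 counts of *Ciita*. Reads on the shared bases are part of the *Ciita* counts, so even coverage cannot hold in WT 3, with 52.2 against 27. The log2 fold change of *Dexi* was 0.49 ± 0.31 (adjusted p = 0.845, edgeR). How many reads of *Ciita* come from *Dexi* cannot be told apart in these counts, and the difference in *Ciita* carries that limit. Schwann cell genes also differed without overlap, with 419, 429 and 274 summed CPM in KO 1 to KO 3 and 201, 219 and 253 in WT 1 to WT 3. Skeletal muscle genes summed to 26.4, 83.3 and 8.4 CPM in KO 1 to KO 3 and to 6.5, 11.2 and 2.18 in WT 1 to WT 3. The highest library for *Ciita*, KO 3, was the lowest knockout library for both lists. It was the highest of the 6 libraries for macrophage, leukocyte, B cell and fibroblast genes, at 783, 92.2, 18.0 and 8045 summed CPM. Dendritic cell genes had their highest sum in WT 2, at 35.1 CPM against 29.4 in KO 3. The part of tissue composition in the *Ciita* difference was not tested.

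Across the 10 genes, 1 had an unadjusted p under 0.05, *Ciita*, against 6.47% of the 16017 genes tested, and 3.4% of genes tested had such a p with a higher level in the knockout. None of the 10 passed after adjustment in edgeR's test, where 0.00624% of genes tested, a single gene, did. None of the 10 passed after adjustment with DESeq2 or limma either, and the numbers with an unadjusted p under 0.05 were 1 with DESeq2, 0 with limma voom and 0 with the earlier method of edgeR. The groups did not overlap for 1 of the 10, against 11.5% of genes tested. By estimate 8 of the 10 were higher in the knockout and 2 were lower, and the median log2 fold change was 0.28, against 0.01 for all genes tested. The median was 0.02 for the 5 class I genes and 0.38 for the 4 class II genes. The class II median rested on KO 3, as the fits without each library show.

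**Figure D3:**
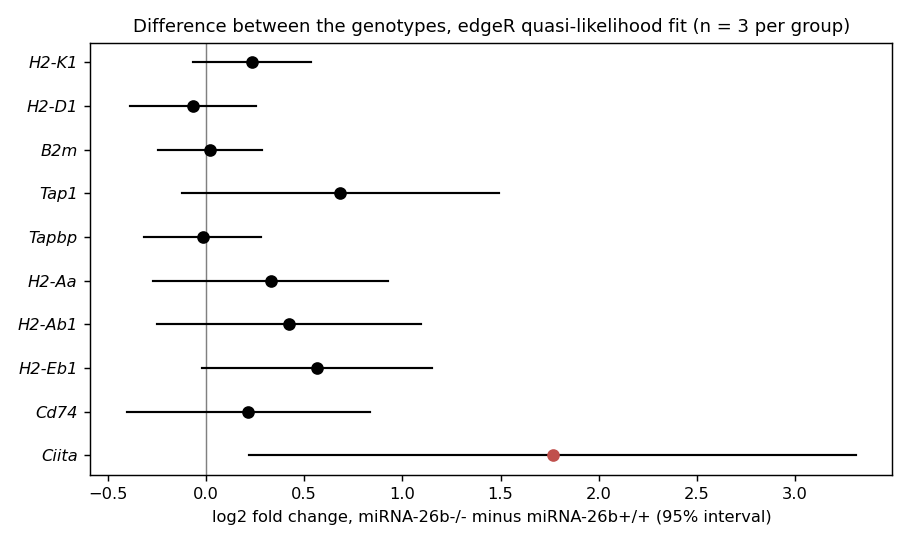
Log2 fold change of the 10 genes, miRNA-26b-/- minus miRNA-26b+/+, with the 95% interval of the edgeR fit (n = 3 per group). The interval of *Ciita*, in red, lies above 0 from 0.22 to 3.31 with an adjusted p = 0.736, and the other 9 intervals include 0.

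Single libraries decided the sign or size of the class II differences. Without KO 3 the log2 fold change was 0.07 for *H2-Aa*, -0.05 for *H2-Ab1*, 0.30 for *H2-Eb1* and -0.32 for *Cd74*, and 0 of the 10 genes had an unadjusted p under 0.05, against 10.8% of the genes tested in that fit. Without KO 2 it was 0.65, 0.76, 0.86 and 0.51 for the same genes, and 4 of the 10 had an unadjusted p under 0.05, namely *H2-Aa*, *H2-Ab1*, *H2-Eb1* and *Ciita*. Their unadjusted p lay between 0.0019 and 0.0152, and each had an adjusted p = 0.857 in edgeR. In that fit 5.76% of the genes tested had such an unadjusted p. Without WT 1, 3 of the 10 had an unadjusted p under 0.05, *Tap1*, *H2-Eb1* and *Ciita*, against 5.34% of the genes tested. No adjusted p of the 10 genes was under 0.05 in any of these fits, and the smallest was 0.553, for *H2-K1*. The log2 fold change of *B2m* stayed between -0.02 and 0.05 whichever library was left out.

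**Figure D4:**
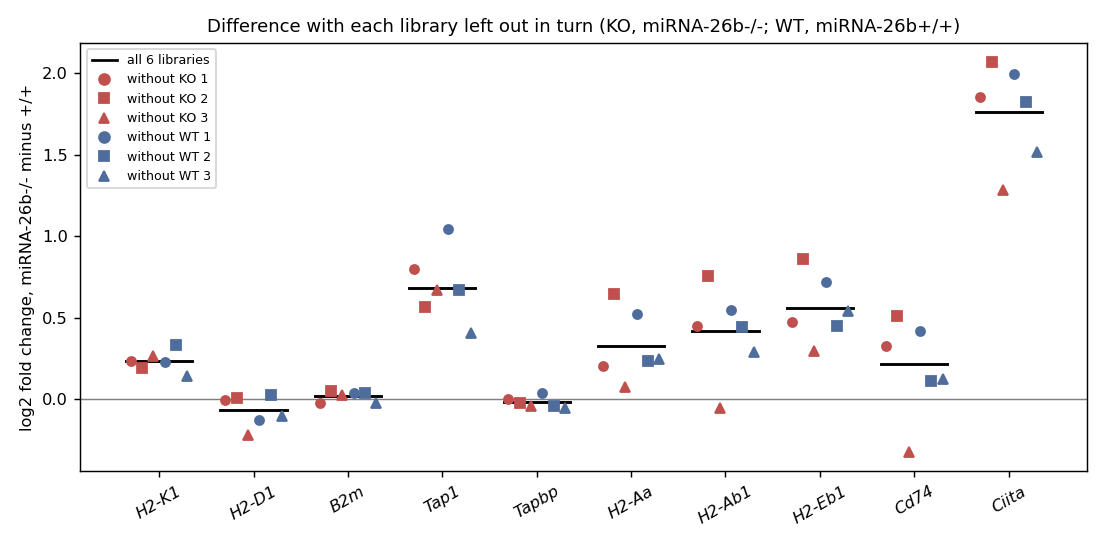
Log2 fold change of each gene with all 6 libraries (black line) and with a single library omitted (symbols, red for miRNA-26b-/- and blue for miRNA-26b+/+). Leaving out KO 3 brings *H2-Ab1* and *Cd74* below 0, to -0.05 and -0.32, and leaving out KO 2 raises all 4 class II genes.

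Since class II genes mark a minority of cells in the vessel wall, the markers of the cell types that carry them are given beside their levels. The 10 macrophage genes summed to 301, 368 and 783 CPM in KO 1 to KO 3 and to 509.9, 559 and 571 CPM in WT 1 to WT 3. KO 3 was the highest library here too, for 9 of the 10 genes, but KO 1, which was second for *H2-Aa*, *H2-Ab1* and *H2-Eb1*, was the lowest. The class II sum divided by the macrophage sum was 1.11, 0.527 and 0.668 in KO 1 to KO 3 and 0.672, 0.432 and 0.435 in WT 1 to WT 3. KO 1 stood above the rest by this ratio, and the groups overlapped. The 8 dendritic cell genes summed to only 24.95 to 29.4 CPM in the knockout and 28.4 to 35.1 CPM in the wild type. The 4 genes of all leukocytes summed to 38.2, 32.0 and 92.2 CPM in KO 1 to KO 3 and to 44.2, 56.3 and 67.0 CPM in WT 1 to WT 3. The part of these cells in the class II levels was not tested.

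Lymphocytes left few reads. The 6 B cell genes summed to 9.69 to 18.0 CPM in the knockout and 11.7 to 16.9 CPM in the wild type, most of it *Ighm*. Of the 3 that were tested, 1 was higher and 2 were lower in the knockout by estimate. The higher gene, *Cd79b*, had 102, 0 and 43 counts in KO 1 to KO 3 and 1, 0 and 0 counts in WT 1 to WT 3. Its groups overlapped (unadjusted p = 0.0398, adjusted p = 0.749, edgeR). The 7 genes of T and NK cells summed to at most 4.26 CPM in any library, and *Cd3e* and *Ncr1* had no count in any. KO 3 also had the highest sum of the 6 fibroblast genes, at 8045 CPM against 4407 to 5494 in the other 5 libraries.

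**Figure D5:**
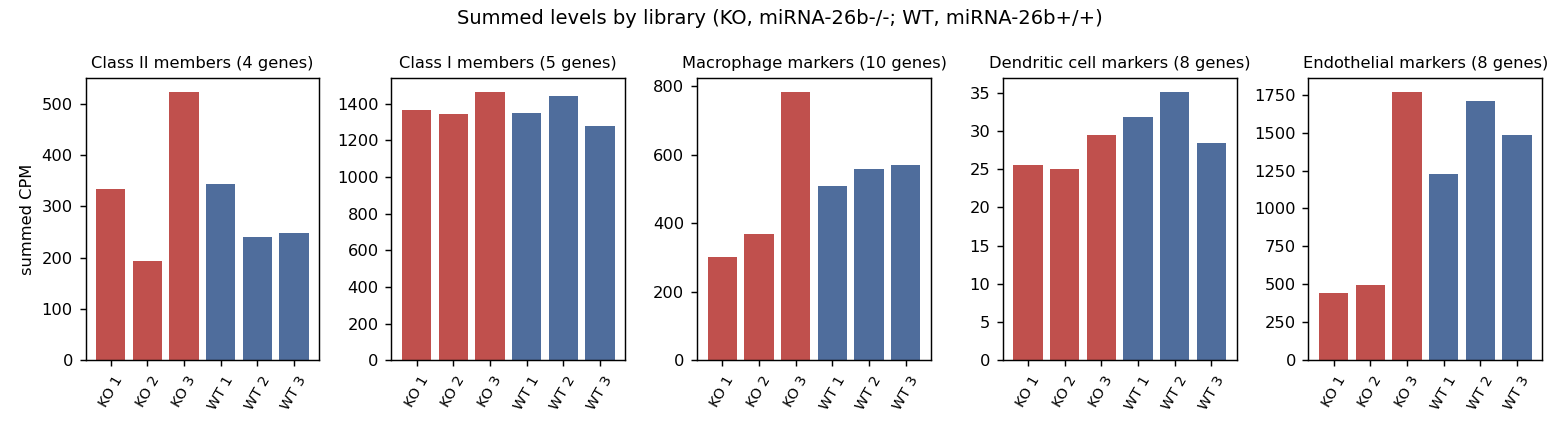
Summed CPM by library of the class II genes, the class I genes and the markers of macrophages, dendritic cells and endothelium, miRNA-26b-/- in red and miRNA-26b+/+ in blue. KO 3 has the highest class II sum, at 523, and the highest macrophage sum, at 783, while KO 1 and KO 2 have the lowest macrophage and endothelial sums.

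The wider pathway was read from 7 lists of 68 further genes, of which 55 were tested. In them 4 genes, or 7.27%, had an unadjusted p under 0.05, against 6.47% of all genes tested. All 4 were lower in the knockout, and 0 passed after adjustment in edgeR. By estimate 33 were lower and 22 higher, and the median log2 fold change was -0.06. The groups did not overlap for 7 of the 55, where 11.5% of all genes tested did not. The 7 were *H2-Q4*, *Tapbpl*, *Canx*, *Pdia3*, *Psme2*, *March1* and *Cd86*, with *Psme2* the only one of the 7 higher in the knockout.

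Among the genes that load class I, *Calr* and *Pdia3*, chaperones of the loading complex, had the highest level per length at 264 and 193 RPKM. *Pdia3* had 563, 474 and 604 CPM in KO 1 to KO 3 and 669, 627 and 702 CPM in WT 1 to WT 3, with each knockout mouse below each wild-type mouse. Its log2 fold change was -0.28 ± 0.13 (unadjusted p = 0.0494, adjusted p = 0.769, edgeR). Of the 11 loading genes 9 were lower by estimate, and *Pdia3* alone had an unadjusted p under 0.05. Of the 15 further heavy chain genes 10 were tested and 0 had an unadjusted p under 0.05, with *H2-T23* at 11.3 RPKM and *H2-Q4* at 9.05 RPKM the highest.

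On the class II side, the peptide exchange genes *H2-DMb1* and *H2-DMa*, which help peptides displace the invariant chain fragment, had 5.39 and 4.21 RPKM, and neither had an unadjusted p under 0.05. *H2-Oa* and *H2-Eb2* had no count in any library, where 3 counts, the limit that a count of 0 allows, would be 0.0893 to 0.117 CPM. The endosomal proteases *Ctsd* and *Ctsb* were high, at 400.5 and 198 RPKM, and hardly differed, with log2 fold changes of 0.01 ± 0.12 and -0.01 ± 0.12. *March1*, a ubiquitin ligase that sends surface class II to degradation, had 0, 28 and 0 counts in KO 1 to KO 3 and 68, 127 and 65 counts in WT 1 to WT 3. All 3 knockout libraries were below the wild type, with an unadjusted p = 0.0165 and an adjusted p = 0.736 in edgeR. *Cd86*, which gives T cells a co-stimulatory signal, had 25, 30 and 29 counts in KO 1 to KO 3 and 153, 122 and 98 counts in WT 1 to WT 3. Its log2 fold change was -2.13 ± 0.73 (unadjusted p = 0.00959, adjusted p = 0.736, edgeR), and the 3 knockout mice were close together. The other co-stimulatory genes with the highest level per length, *Icosl* and *Cd274*, had 3.33 and 1.57 RPKM, and their groups overlapped.

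Upstream of the MHC genes, 10 of the 13 transcription factor genes were higher by estimate, none had an unadjusted p under 0.05, and the median log2 fold change was 0.15. *Nfya*, a subunit of the factor that binds the Y box, had the highest level per length at 7.96 RPKM. Its log2 fold change was 0.11 ± 0.21. *Ifng* had no count in any library, while its receptor genes *Ifngr1* and *Ifngr2* had 29.2 and 26.1 RPKM. *Jak1*, a kinase of that receptor, had 96.6, 108 and 124 CPM in KO 1 to KO 3 and 116, 158 and 157 CPM in WT 1 to WT 3. WT 1 lay below KO 3, and the log2 fold change was -0.39 ± 0.17 (unadjusted p = 0.0411, adjusted p = 0.7495, edgeR).

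The genes whose level followed the class II genes most closely over the 6 libraries were all outside the lists used here. The mean log2 CPM of the 4 class II genes was compared with that of 11681 genes, and the 10 nearest, *Hdac4*, *Slc38a9*, *Mettl5*, *Gspt2*, *Ctps2*, *Mtmr6*, *Mir8094*, *Adamts14*, *Tns3* and *Vps54*, had Pearson correlations of 0.978 to 0.960. None of these 10 was on a marker or pathway list. The lists hold only a small part of the 11681 genes compared, so this does not show whether the 10 are immune genes. *Ctps2*, for example, had 40.3, 19.0 and 49.8 CPM in KO 1 to KO 3 and 33.1, 28.1 and 25.9 CPM in WT 1 to WT 3, with the same highest and lowest mouse as *H2-Ab1*. The 10 nearest to the mean of the class I genes were *Rps6kb1*, *Fam135a*, *Stat5a*, *Timm17b*, *Plscr4*, *Ptp4a1*, *Hapln1*, *Sacm1l*, *Dhcr7* and *Decr2*, at 0.991 to 0.978, and that mean moves mostly with *Tap1*, the variable gene of the 5. These correlations rest on 6 libraries of mixed vessel tissue, and they are given as a description only.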

How the data were processed

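RNA was extracted from aortic vessels with the RNeasy Mini Kit per the methods, and TruSeq libraries, which do not keep strand, were sequenced. The authors aligned the reads with STAR (version not given in the sources used here) to GRCm38 and counted reads over exons per gene name with featureCounts 1.6.4 and the GENCODE M21 annotation per the file headers. They ignored strand and counted a read over several genes for each, and reads with several alignments were not counted. The methods name annotation release M23 instead. The deposited values are whole-number counts, 25706728 to 33345037 per library. A second deposited table holds log2 CPM per library, used here only in 1 alternative, beside the authors' fold changes, p-values and FDR, which were not used. Columns of other samples numbered 0.

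Genes were kept at 2 or more counts in all and above 1 CPM in 2 or more libraries. After TMM normalization, knockout was compared with wild type by edgeR 4.0.16 (quasi-likelihood test, R 4.3.3, prior count 0.125), with Benjamini-Hochberg adjustment over all genes tested. SE is the log2 fold change divided by the square root of F. RPKM is CPM per kilobase of merged exons. Floors (3 counts) and counts cover counting error only, since reads were not tagged by molecule. All 10 members are named, with pathway genes at an unadjusted p under 0.05, the 2 of highest RPKM per list, those whose groups did not overlap (named after their values were seen), *Ctps2* as an example, genes with no count, and the 10 genes most correlated with each class. Some genes that this rule names are not reported here. The members, gene lists and tests were chosen with earlier results of these data known. Alternatives were library-size and upper-quartile scaling, DESeq2 1.42.0, limma 3.58.1 (voom, trend), the earlier edgeR method, other filters, a prior count of 2, heavy chains summed and leaving out each library. Each mouse gave 1 library, and the labels name no batch, so batches were not examined.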

Additional observations from a re-analysis of the deposited data

How the results depend on the processing

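The call of *Ciita* at an unadjusted p under 0.05 held in 10 of 15 alternative settings, and no member passed after adjustment in any. Among these settings, a prior count of 2 alters only the estimate, so the p of a member cannot move there. Over the 10 members and all settings, 133 of 152 values kept their direction and side of that threshold. The 152 include the summed heavy chains, entered for *H2-K1* and again for *H2-D1*, although that sum estimates neither gene alone. The number of members with such a p was 0 with limma voom and 0 with the earlier quasi-likelihood method of edgeR, and 0 to 4 with 1 library left out. Without KO 1 it was 1. The median log2 fold change of the members was 0.05 to 0.54 with 1 library left out, lowest without KO 3 and highest without KO 2. The number of genes tested with such a p was 686 (without WT 3) to 1692 (without KO 3), against 1036 with all libraries. After adjustment it was 1 in edgeR, 57 with DESeq2, 3 with limma voom, 0 with the earlier method and 82 without KO 3.

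Directions turned for members whose estimate lay near 0 or rested on KO 3. With 1 library left out, *H2-D1* ranged from -0.22 (KO 3) to 0.0267 (WT 2), turning also without KO 2 (0.0073). The summed heavy chains were at 0.0139, which is no estimate of *H2-D1* alone. *B2m* ranged from -0.023 (WT 3) to 0.0527 (KO 2), turning also without KO 1 (-0.0192), and *Tapbp* from -0.0546 (WT 3) to 0.0371 (WT 1), turning also without KO 1 (0.002). *H2-Ab1* ranged from -0.052 (KO 3) to 0.757 (KO 2) and *Cd74* from -0.32 (KO 3) to 0.51 (KO 2). The causes were not tested. No paired analysis was possible because the labels give no replicate numbers, and the column headers of the deposited log2 table number 2 knockout libraries alike, which leaves only 1 number that both genotypes share without ambiguity. With 3 mice per group an exact permutation test cannot go below 0.1, and the low counts of *Ciita*, with 27 to 211 per library, limit its precision.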
